A study of Mus musculus with 17 samples.

Results

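Pancreatic digestive enzymes are made by the acinar cells of the exocrine pancreas, and the 9 genes described here encode proteases or lipid-digesting proteins of pancreatic juice, Ctrb1, Prss2, Cela1, Cela2a, Cpa1, Cpb1, Cel, Clps and Pnlip. RNA came not from pancreas but from mouse medullary thymic epithelial cells, where Aire drives low-level transcription of genes otherwise confined to other tissues. Members were chosen by name: a gene was taken where a probe set of the array carries its symbol as the only one in the platform annotation. In all, 8 of the 9 enzymes have such a probe set, 1 each, among 19752 genes named in this way; Pnlip, the pancreatic lipase, has none and was not analysed here. A probe set was tested if its intensity exceeded the 40th percentile of its own array on at least 2 of the 17 arrays. That left 5 of the 8 enzymes (Ctrb1, Clps, Cela2a, Cel and Prss2) among 13842 tested genes. Cela1, Cpa1 and Cpb1 lay above that percentile on 0 arrays, so their values are given from a fit without this filter.

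Acinar cells store these enzymes in zymogen granules, mostly as inactive precursors, and release them into the gut. There enteropeptidase turns trypsinogen (Prss2) into trypsin, and trypsin activates chymotrypsinogen (Ctrb1), the proelastases (Cela1, Cela2a) and the procarboxypeptidases (Cpa1, Cpb1). Cel is a lipase activated by bile salts, and colipase, encoded by Clps, anchors pancreatic lipase to fat droplets. In the thymus, peptides from such tissue-restricted proteins are shown to developing T cells, which contributes to self-tolerance to peripheral organs.

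All cells were of the C57BL/6 background and of mixed gender, and were sorted from the thymic medulla as CD45- Ly51- MHCIIhi cells. All mice carried the Adig transgene, an Igrp-GFP reporter driven by Aire, so GFP+ cells are those in which the Aire-driven reporter was on. GFP+ cells were also sorted from Aire KO mice, so the term does not mean that the reporter needs working Aire. Adults were 5 weeks old; perinates are given as 3 days old for each sample and as 0 to 3 days in the description of the series. The groups are adult WT GFP- (arrays 6, 7 and 8), adult WT GFP+ (arrays 6, 7 and 8), adult Aire KO GFP+ (arrays 1, 2 and 3), perinate WT GFP- (arrays 1 and 2), perinate WT GFP+ (arrays 5, 6 and 7) and perinate Aire KO GFP+ (arrays 1, 2 and 3). GFP- cells from KO mice were not analysed here, and the labels do not say whether a sample pooled several mice. Values are RMA intensities on a linear scale, and differences are in log2 units with their standard error (SE) from limma.

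The targeted gene, Aire, read 5097 ± 971 in adult WT GFP+ and 4927 ± 284 in adult KO GFP+ samples (SD, n = 3 each), and 4773 ± 629 against 5272 ± 1050 in perinates. Which part of Aire was deleted is not in the labels, and its probe set gives no check of the KO label. G6pc2, the gene of Igrp, read 9141 ± 484 in adult WT GFP+ against 1614 ± 143 in GFP- cells and 7559 ± 403 against 341.5 ± 124 in perinates (n = 2 for perinate GFP-); its probe set can read the transgene. Array medians ran from 144.5 to 157.1 and the 40th percentiles from 96.2 to 112.1. Perinate KO arrays 2 and 3 stood apart: the Y-linked Uty read 19.24 and 16.14 there against 168.9 to 366.2 on the other 15 arrays, although the labels give mixed gender. Results that rest on them are given with and without both arrays where a call changed. The 16 thymic epithelial markers (keratins, Epcam, MHC class II and others) were all tested, and their summed intensity ran from 55738.1 to 73160.6 per array.

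Promoters of acinar genes are known for a paired element bound by the PTF1 complex, an E-box (CACCTG) beside a TTTCCC box. The 250 bases before the annotated start are shown for the 3 enzymes with a promoter entry whose level fell without Aire, Ctrb1, Cel and Prss2, and for the elastase Cela1, which stayed dim. Sequences are from RefSeq on GRCm38.p6, where 8 of the 9 enzymes have an entry; Clps has none. Capitals mark CACCTG on either strand (CAGGTG on the gene's strand), TTTCCC on either strand (GGGAAA) and TATAAA on the gene's strand; no matches overlap. The stretches are Ctrb1 at chr8:111691011-111691260 (minus strand), Cel at chr2:28563404-28563653 (minus strand), Prss2 at chr6:41521526-41521775 (plus strand) and Cela1 at chr15:100687921-100688170 (minus strand), each written 5′ to 3′ along its gene.
Ctrb1: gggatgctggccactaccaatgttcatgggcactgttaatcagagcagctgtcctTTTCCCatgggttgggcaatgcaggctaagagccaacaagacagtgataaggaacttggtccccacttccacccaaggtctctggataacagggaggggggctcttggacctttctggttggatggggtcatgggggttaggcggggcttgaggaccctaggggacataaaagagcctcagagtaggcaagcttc
Cel: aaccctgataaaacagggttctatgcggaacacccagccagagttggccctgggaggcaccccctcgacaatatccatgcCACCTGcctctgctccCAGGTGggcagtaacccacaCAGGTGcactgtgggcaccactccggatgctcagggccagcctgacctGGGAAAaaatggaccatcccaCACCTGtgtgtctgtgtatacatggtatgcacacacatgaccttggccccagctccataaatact
Prss2: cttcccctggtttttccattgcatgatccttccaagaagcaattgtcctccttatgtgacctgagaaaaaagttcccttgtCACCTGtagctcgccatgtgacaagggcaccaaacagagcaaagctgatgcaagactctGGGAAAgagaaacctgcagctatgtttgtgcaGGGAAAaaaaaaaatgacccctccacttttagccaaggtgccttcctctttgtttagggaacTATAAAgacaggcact
Cela1: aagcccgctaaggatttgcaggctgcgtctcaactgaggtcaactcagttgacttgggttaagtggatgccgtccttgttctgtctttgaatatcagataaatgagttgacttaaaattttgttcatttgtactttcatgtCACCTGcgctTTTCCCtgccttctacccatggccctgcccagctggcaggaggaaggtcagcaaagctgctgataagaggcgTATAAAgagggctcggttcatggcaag

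Cela1 held an E-box beside a TTTCCC box, with CACCTG from base 109 to base 104 before the start, TTTCCC from base 99 to base 94 and TATAAA from base 27 to base 22. Prss2 held 1 E-box, 2 TTTCCC boxes and TATAAA. Cel held 4 E-boxes and 1 TTTCCC box, the latter from base 86 to base 81 and its nearest E-box from base 65 to base 60. Ctrb1, the enzyme with the largest fall of the 8, held no CACCTG and a single TTTCCC box from base 195 to base 190. Cela2a, whose level differed little between genotypes, held 1 of each box, Cpa1 a TTTCCC box, Cpb1 an E-box and Pnlip only TATAAA. Among 32851 annotated promoters of this length, 17.2% hold CACCTG, 21.9% hold TTTCCC and 7.59% hold TATAAA. A match is a run of letters and not a measured binding site.

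Without Aire, the chymotrypsinogen, colipase and bile salt-activated lipase transcripts fell several-fold in GFP+ cells of both ages, the trypsinogen Prss2 fell by a smaller amount, and the elastase Cela2a passed no test. Of the 5 tested enzymes, 4 were lower in adult KO than in adult WT GFP+ cells, where 10.8% of all tested genes were lower, and 4 were lower in perinates, where 13% were. The median log2 difference of the 5 was -1.66 in adults and -1.53 in perinates, beside 0.06 and 0.09 over all tested genes. Cel entered the test only through the 6 WT GFP+ arrays and Prss2 only through 2 adult GFP- arrays, the groups in which each is highest. Both medians are the values of Cel itself. These counts and medians therefore describe the 5 and lend no weight of their own. Nor did the size of the KO difference change detectably with age: 0 of 5 enzymes were called for the difference between perinates and adults by limma, 0 had an unadjusted p under 0.05, and 1.21% of all genes were called. Dendritic cell and macrophage markers were lower in adult KO than WT GFP+ cells (6 of 9 lower and 1 higher, 6255.8 to 6507.1 against 7425.1 to 7574.9), and the fibroblast sum was higher (4349.2 to 4682 against 2737.6 to 3099.4), with 2 of 7 fibroblast markers higher and 2 lower. In perinates 4 of 9 dendritic cell and macrophage markers were lower and 1 higher (4641.5 to 5166.4 in KO against 4740.8 to 5470.4 in WT cells), and 3 of 7 fibroblast markers were lower and 2 higher (5073.9 to 5400.9 against 4262.5 to 5263.6), so both sums overlapped. Over all tested genes 9.06% were higher in adult KO cells and 13.5% in perinate KO cells. The part of these markers in the KO results was not tested.

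**Figure D1:**
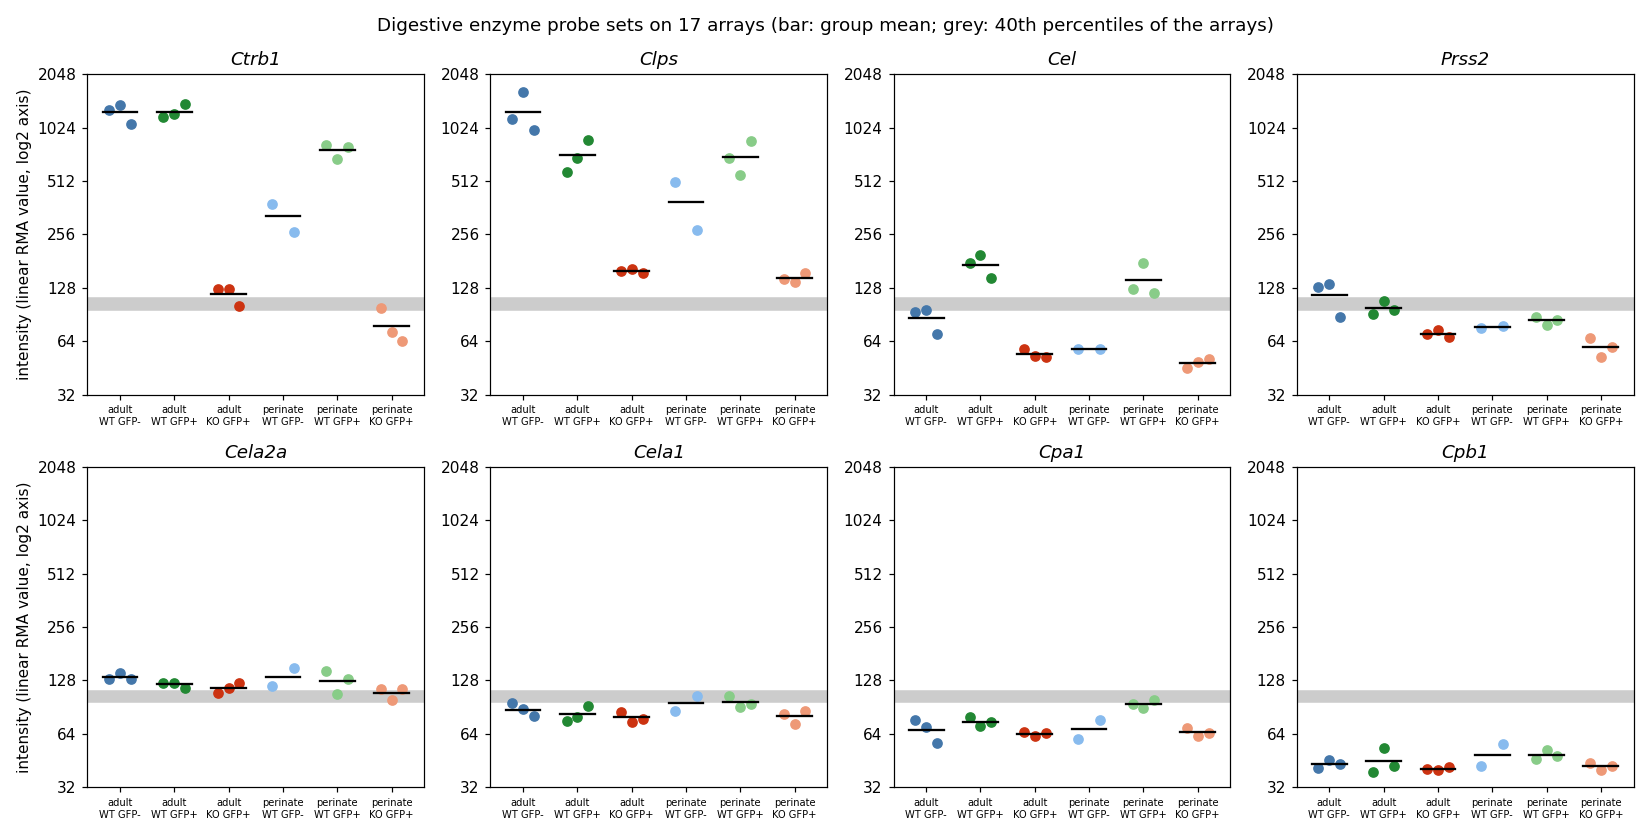
Intensity (linear RMA value, log2 axis) of the 8 enzymes on each array in the 6 groups; points are arrays, bars are group means, and the grey band spans the 40th percentiles of the arrays. Ctrb1 and Clps stand far above the band in every WT group and close to it in KO cells, Cel rises above it only in WT GFP+ cells, and Cela1, Cpa1 and Cpb1 lie within or below it.

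Ctrb1, the chymotrypsinogen, was the enzyme with the widest range. On the adult WT GFP+ arrays it read 1176.7, 1214.2 and 1387.5, and on the adult KO arrays 125.8, 126.9 and 101.6. The perinate WT GFP+ arrays read 818.7, 678.4 and 797.9, and the perinate KO arrays 98.5, 72.4 and 64.3. GFP- cells read 1286.3, 1374 and 1076.5 in adults, against 382.1 and 264.3 in perinates. Every KO array was thus lower than every WT array of either age and sort. The KO difference was -3.42 ± 0.17 in adults (10.7-fold lower, adjusted p = 1.5e-10) and -3.31 ± 0.17 in perinates (9.89-fold lower, adjusted p = 4.66e-10). On 3 of the 6 KO arrays Ctrb1 lay below the 40th percentile of the array, so the sizes of these folds rest partly on dim values. The perinate minus adult gap between these KO differences was 0.11 (95% interval -0.38 to 0.61). In such sorted bulk samples, fewer cells with the transcript and less of it per cell cannot be told apart.

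The order of Ctrb1 levels was adult WT GFP+ (1259 ± 112) and adult WT GFP- (1246 ± 153), which overlapped, then perinate WT GFP+ (765 ± 75.7), perinate WT GFP- (323.2 ± 83.3, n = 2), adult KO (118.1 ± 14.3) and perinate KO (78.39 ± 17.9). Below the first pair no neighbours in this order overlapped. Adult GFP+ and GFP- cells differed by 0.02 ± 0.17 (95% interval -0.33 to 0.37, adjusted p = 0.934). In perinates the reporter-positive cells were 2.4-fold higher, by 1.26 ± 0.19 (adjusted p = 3.39e-05). With age, Ctrb1 was lower in perinates than in adults by 1.65-fold in WT GFP+ cells (-0.72 ± 0.17, adjusted p = 0.00577) and by 3.9-fold in GFP- cells (-1.96 ± 0.19, adjusted p = 3.12e-07). In KO cells the age difference was -0.61 ± 0.17 (adjusted p = 0.0131), and it was -0.25 with an adjusted p of 0.471 without perinate KO arrays 2 and 3; it also lost its call without adult KO array 2 (adjusted p = 0.0547) and without perinate KO array 3 (adjusted p = 0.0721).

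Prss2 encodes a trypsinogen, the precursor of the protease that activates the others. Its adult WT GFP+ arrays read 90.6, 107.4 and 96.1 and its adult KO arrays 70.3, 74.5 and 67.4. Perinate WT GFP+ arrays read 88.1, 79.3 and 84.2 and perinate KO arrays 66.4, 52.5 and 59.2. Adult GFP- cells read 129.7, 134.6 and 87.2 and perinate GFP- cells 76.5 and 78. At both ages the KO arrays lay below the WT arrays without overlap, though all values are in the dim range around the 40th percentile and the differences are small. The KO difference was -0.47 ± 0.14 in adults (1.38-fold lower, adjusted p = 0.0254) and -0.50 ± 0.14 in perinates (1.42-fold lower, adjusted p = 0.0145). Both calls were lost under quantile normalization (adjusted p = 0.0748 and 0.141). The adult call was also lost without adult WT GFP+ array 7 or 8 (adjusted p = 0.107 and 0.0598) or adult KO array 1 or 3 (0.0606 and 0.0759). The perinate call was lost without perinate WT GFP+ array 5 (adjusted p = 0.0555), without perinate KO array 2 (0.0772), and without perinate KO arrays 2 and 3 (0.351). Prss2 has near-identical trypsinogen copies beside it, so its probe set may read more than this gene.

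Among the Prss2 group means, adult GFP- cells were highest (117.2 ± 26.1), followed by adult WT GFP+ (98.03 ± 8.59), perinate WT GFP+ (83.85 ± 4.44), perinate GFP- (77.24 ± 1.08), adult KO (70.74 ± 3.57) and perinate KO (59.4 ± 6.96). Only the first pair in this order overlapped. GFP+ and GFP- cells were not called different in adults (-0.24 ± 0.14, adjusted p = 0.186), but without adult GFP- array 8 the difference was -0.43 with an adjusted p of 0.0068. In perinates it was 0.12 ± 0.16 (adjusted p = 0.576). Perinate GFP- cells were 1.49-fold lower than adult GFP- cells (-0.58 ± 0.16, adjusted p = 0.00635; 0.053 where only these groups entered the fit).

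The elastase precursors passed no KO test. Cela2a read 123.5, 124 and 116.5 in adult WT GFP+ cells against 108.3, 116.6 and 124 in adult KO cells. In perinates it read 145.1, 107 and 131 against 114.3, 99.8 and 113.9. WT and KO arrays overlapped at both ages. The differences were -0.06 ± 0.12 (95% interval -0.31 to 0.19, adjusted p = 0.761) and -0.22 ± 0.12 (-0.47 to 0.04, adjusted p = 0.187). Cela2a read near the 40th percentiles of the arrays (96.2 to 112.1) in every group, WT included. A several-fold fall of the transcript may therefore not show on this probe set, and the intervals cannot exclude one. The perinate difference was called without perinate WT GFP+ array 6 (-0.34, adjusted p = 0.0446). Cela2a group means stayed between 109.4 ± 8.23 (perinate KO) and 134.1 ± 5.56 (adult GFP-).

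Cela1, the other elastase, was dimmer, with group means from 79.28 ± 5.09 in adult KO to 96.62 ± 6.85 in perinate WT GFP+ cells. In the fit without the filter its KO differences were -0.05 ± 0.11 in adults (adjusted p = 0.791) and -0.27 ± 0.11 in perinates (adjusted p = 0.0839). Adult WT and KO arrays of Cela1 overlapped and perinate ones did not.

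The carboxypeptidase precursors trim residues from the end of a peptide chain, Cpa1 with a preference for aromatic and aliphatic ones and Cpb1 for basic ones. Cpa1 read 94.2, 89.4 and 99.5 in perinate WT GFP+ cells and 69.1, 61.9 and 64.9 in perinate KO cells, with no overlap. Adult WT GFP+ arrays read 79.2, 71.2 and 74.5 and adult KO arrays 65.2, 62.1 and 65. In the unfiltered fit, Cpa1 was 1.45-fold lower in perinate KO cells (-0.53 ± 0.11, adjusted p = 0.00275; 0.121 without perinate KO arrays 2 and 3), and the adult difference was -0.22 ± 0.11 (adjusted p = 0.191). Perinate GFP+ cells exceeded GFP- cells 1.39-fold (0.48 ± 0.13, adjusted p = 0.00714; 0.152 without perinate GFP- array 1). All of these values lie below the 40th percentile, where the data give no separate measure of background.

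Cpb1 was the dimmest of the 8 probe sets, with group means from 40.75 ± 0.949 in adult KO to 48.85 ± 9.78 in perinate GFP- cells. Its KO differences were -0.12 ± 0.12 in adults (adjusted p = 0.51) and -0.21 ± 0.12 in perinates (adjusted p = 0.212).

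The bile salt-activated lipase Cel was higher in GFP+ than in GFP- WT cells at both ages. It read 176.1, 197.1 and 144.6 in adult WT GFP+ cells, against 93.8, 96.6 and 70.2 in adult GFP- and 57.7, 52.6 and 52.3 in adult KO cells. Perinate arrays read 126.6, 177.4 and 120.3 in WT GFP+ cells, 58.1 and 58.2 in GFP- cells and 45.1, 48.7 and 50.7 in KO cells. Within each age the 3 groups did not overlap, with WT GFP+ cells highest and KO cells lowest. Without Aire, Cel was 3.16-fold lower in adults (-1.66 ± 0.15, adjusted p = 3.16e-07) and 2.89-fold lower in perinates (-1.53 ± 0.15, adjusted p = 1.2e-06). GFP+ cells exceeded GFP- cells 1.99-fold in adults (0.99 ± 0.15, adjusted p = 5.92e-05) and 2.4-fold in perinates (1.26 ± 0.17, adjusted p = 1.44e-05). Cel lay above the 40th percentile only on the 6 WT GFP+ arrays, through which it entered the test. The sizes of its KO and sort folds therefore rest partly on dim values.

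By mean level, Cel ran from adult WT GFP+ (172.6 ± 26.4) through perinate WT GFP+ (141.4 ± 31.3), adult GFP- (86.85 ± 14.5), perinate GFP- (58.12 ± 0.0851, n = 2) and adult KO (54.23 ± 3.04) to perinate KO (48.19 ± 2.83). Only the first pair overlapped, and its difference was -0.30 ± 0.15 for perinates minus adults (adjusted p = 0.173; -0.47 and 0.0326 without perinate WT GFP+ array 6). Perinate GFP- cells were 1.48-fold below adult GFP- cells (adjusted p = 0.0122), a call lost without adult GFP- array 7 (adjusted p = 0.05, just over the threshold) and without perinate GFP- array 1 or 2 (0.0549 and 0.0544).

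Colipase (Clps) followed another order. Adult GFP- cells read highest at 1148.4, 1631.5 and 990.9, above the adult WT GFP+ arrays at 579.1, 688.2 and 873.7 and the adult KO arrays at 159.3, 163.4 and 154.5. In perinates the WT GFP+ arrays read 692.8, 554.9 and 857, the GFP- arrays 505 and 271.4, and the KO arrays 143.1, 137.9 and 155. The groups of an age did not overlap, but GFP- cells lay above GFP+ cells in adults and below them in perinates. Clps was 4.42-fold lower in adult KO cells (-2.15 ± 0.22, adjusted p = 1.23e-06) and 4.76-fold lower in perinate KO cells (-2.25 ± 0.22, adjusted p = 9.61e-07). Even in KO cells it stayed above the 40th percentile on every array.

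Adult GFP+ cells held 1.75-fold less Clps than adult GFP- cells (-0.81 ± 0.22, adjusted p = 0.00695). Perinate GFP+ cells held 1.87-fold more than perinate GFP- cells (0.90 ± 0.25, adjusted p = 0.00693), a call lost without perinate GFP- array 2 (0.45, adjusted p = 0.197). Among the group means, adult GFP- (1257 ± 334) was followed by adult WT GFP+ (713.7 ± 149) and perinate WT GFP+ (701.6 ± 151), which overlapped, then perinate GFP- (388.2 ± 165), adult KO (159.1 ± 4.47) and perinate KO (145.3 ± 8.78), which overlapped again. Perinate and adult WT GFP+ cells differed by -0.03 ± 0.22 (95% interval -0.49 to 0.44), whereas perinate GFP- cells were 3.32-fold below adult GFP- cells (-1.73 ± 0.25, adjusted p = 2.39e-05).

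**Figure D2:**
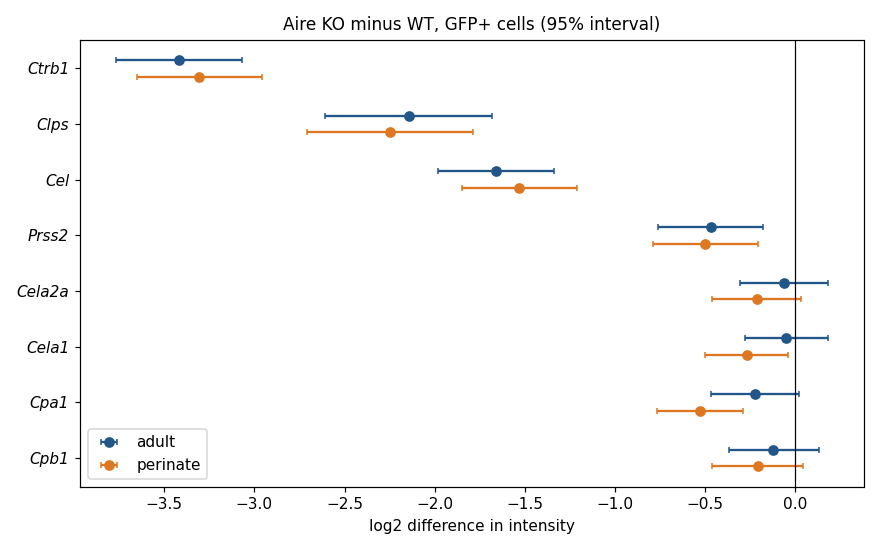
Log2 difference in intensity, KO minus WT GFP+ cells, for the 8 enzymes in adults (blue) and perinates (orange), from the fit without a filter; points are estimates and bars 95% intervals. Ctrb1 lies at -3.42 and -3.31, Clps at -2.15 and -2.25 and Cel at -1.66 and -1.53, while Cela2a, Cela1 and Cpb1 lie within 0.3 of 0.

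Comparing GFP+ with GFP- WT cells asks whether the enzymes are higher where the Aire-driven reporter is on. In adults 1 of the 5 tested enzymes was higher (Cel) and 1 lower (Clps), where 44.9% of all tested genes were called in either direction, so this count is close to what the other genes show. In perinates 3 of 5 were higher (Ctrb1, Cel and Clps) and 0 were lower, where 22.9% of all genes were higher. Cel entered the test only through WT GFP+ arrays, its high side at both ages. These counts and the medians that follow therefore lend no weight of their own. The median over the 5 was -0.14 in adults and 0.9 in perinates, beside 0.02 and 0 over all tested genes. For 2 enzymes the effect of the sort itself differed between the ages: by 1.24 ± 0.25 for Ctrb1 (adjusted p = 0.00203) and by 1.71 ± 0.33 for Clps (adjusted p = 0.00155), higher in perinates, where 10.7% of all genes showed such a rise. For Cel that difference was 0.27 ± 0.23 (95% interval -0.22 to 0.75, adjusted p = 0.46), for Prss2 0.35 ± 0.21 (adjusted p = 0.269; 0.55 and 0.0247 without adult GFP- array 8) and for Cela2a 0.08 ± 0.18 (adjusted p = 0.82).

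Other cell types' markers moved with the sort in perinates. Of 7 cortical epithelial markers (Psmb11, Prss16 and others), 6 were lower and 1 higher in perinate GFP+ than GFP- cells, and their summed intensity was 3774.7 to 6820 against 13755.3 to 14147.7. Of 9 tested dendritic cell and macrophage markers 6 were higher, summing to 4740.8 to 5470.4 against 1015.8 to 1287.4 over the 10 of the list. Over all tested genes 20.5% were lower and 22.9% higher in this perinate comparison. In adults the cortical sum was 3659.2 to 4411.3 in GFP+ and 3661.5 to 5500 in GFP- cells, and the dendritic cell sum 7425.1 to 7574.9 against 5662.1 to 6781.5. Their part in the perinate results for Ctrb1, Cel and Clps was not tested.

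**Figure D3:**
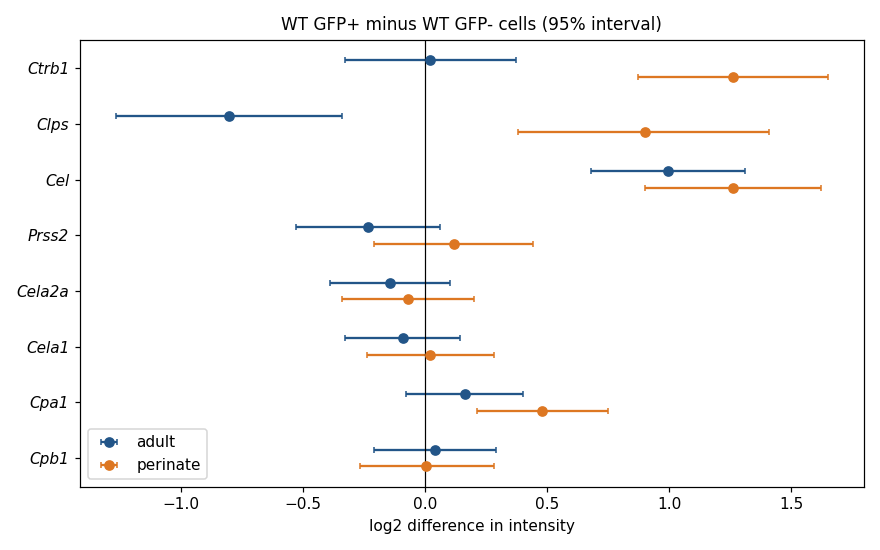
Log2 difference in intensity, WT GFP+ minus WT GFP- cells, for the 8 enzymes in adults (blue) and perinates (orange), from the fit without a filter; points are estimates and bars 95% intervals. Cel is positive at both ages, Ctrb1 only in perinates, and Clps is negative in adults and positive in perinates.

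Between the ages, calls were most numerous in GFP- cells. Perinate GFP- cells were lower than adult GFP- cells for 4 of 5 tested enzymes (Ctrb1, Clps, Prss2 and Cel), where 24.2% of all genes were lower. Prss2 entered the test only through adult GFP- arrays, the high side here. This count and the GFP- median given below therefore lend no weight of their own. In the same comparison 9 of 16 thymic epithelial markers were lower, Aire among them (310.5 ± 57.3 against 690 ± 221), as were 8 of 9 dendritic cell and macrophage markers (summed 1015.8 to 1287.4 against 5662.1 to 6781.5), and 5 of 7 cortical markers were higher (13755.3 to 14147.7 against 3661.5 to 5500). Over all tested genes 22.1% were higher in perinate GFP- cells. The part of these markers in the result was not tested. In WT GFP+ cells 1 of 5 was lower in perinates (Ctrb1), where 13.6% of all genes were, and in KO GFP+ cells 1 of 5 (Ctrb1), where 12.6% were. The medians over the 5 were -0.57, -0.22 and -0.17, beside 0.02, 0 and -0.01 over all tested genes. These comparisons share their groups with those above, so they are not separate evidence.

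KO GFP+ cells were also set against WT GFP- cells of the same age. These groups differ in both genotype and sort, so the effects of the knockout and of the sort cannot be told apart here. Prss2 entered the test only through adult GFP- arrays, the high side in adults, so the adult count lends no weight of its own. In adults 4 of 5 were lower in KO GFP+ cells, where 25.1% of all genes were lower: Ctrb1 10.5-fold (-3.40 ± 0.17, adjusted p = 2.5e-10), Clps 7.73-fold (-2.95 ± 0.22, adjusted p = 1.44e-08), Prss2 1.63-fold (adjusted p = 0.000441) and Cel 1.59-fold (adjusted p = 0.00142). In perinates 3 of 5 were lower, where 24.1% of all genes were: Ctrb1 4.12-fold (-2.04 ± 0.19, adjusted p = 1.46e-07), Clps 2.55-fold (-1.35 ± 0.25, adjusted p = 0.000253) and Prss2 1.31-fold (adjusted p = 0.0499). That Prss2 call was lost in 10 of its alternatives, among them the unfiltered fit (adjusted p = 0.0563) and the fit without perinate KO arrays 2 and 3 (0.45). For Cel the perinate difference was -0.27 ± 0.17 (adjusted p = 0.194), and for Cela2a -0.29 ± 0.13 (adjusted p = 0.0829, and 0.0279 without perinate GFP- array 1). In perinates 7 of 7 cortical markers were lower in KO GFP+ cells (4812.7 to 5596.7 against 13755.3 to 14147.7). Of 9 dendritic cell and macrophage markers 3 were higher and 1 lower (4641.5 to 5166.4 against 1015.8 to 1287.4), where 26.6% of all genes were higher. In adults the cortical sum was 3113.4 to 3910.7 against 3661.5 to 5500, and the dendritic cell sum 6255.8 to 6507.1 against 5662.1 to 6781.5. Their part in these results was not tested.

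A list of 32 other acinar products gave 27 with a probe set and 14 tested. Of the 14, 7 lay above the 40th percentile on no KO array (Cela3b, Pla2g1b, Pnliprp2, Reg3b, Spink1, Try5 and Try10), so they entered through WT arrays. The counts of falls and the medians therefore describe the 14 without weight of their own. In adult KO cells 12 of the 14 were lower and 0 higher (10.8% of all tested genes were lower), with a median of -1.67 beside 0.06 over all genes, and the 2 that were not called were Ctrl and Reg3g. In perinate KO cells 12 of 14 were lower, all but Ctrl and Gp2 (13% of all genes), with a median of -1.09 beside 0.09. Without the filter 16 of the 27 were lower in adults and 20 of 27 in perinates, and 0 were higher at either age. The difference between the ages was called for 0 of 14 by limma, with 3 at an unadjusted p under 0.05 (Cela3b, Reg1 and Reg3b). Across the sort the list split in adults, with 3 higher in GFP+ cells (Cela3b, Try10 and Pla2g1b) and 6 lower (Pnliprp2, Rnase1, Gp2, Spink1, Reg3b and Reg3g), beside rises in 24.7% and falls in 20.1% of the tested genes. In perinates 5 of 14 were higher and 0 lower (22.9% of all genes were higher), and for 7 of 14 the sort effect was greater in perinates (10.7% of all genes).

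Pla2g1b, the secreted pancreatic phospholipase, fell from 1678.1, 1587.8 and 1587.5 in adult WT GFP+ cells to 70.9, 61.3 and 73.4 in adult KO cells, 23.7-fold (-4.56 ± 0.22, adjusted p = 1.5e-10), and 15.8-fold in perinates (-3.99 ± 0.22, adjusted p = 1.33e-09). No KO array of Pla2g1b came near the WT range, and all of them lay below their 40th percentiles, so the sizes of these folds rest on dim values. Reg1, a secreted acinar protein, fell 5.02-fold in adults (adjusted p = 5.65e-05) and 2.36-fold in perinates (adjusted p = 0.011). Cela3b, an elastase family protease, fell 3.2-fold (adjusted p = 3.23e-08) and 2.25-fold (adjusted p = 3.85e-06). Sycn, a zymogen granule protein, fell 2.55-fold (adjusted p = 3.72e-07) and 2.11-fold (adjusted p = 7.25e-06).

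Gp2, the major glycoprotein of the granule membrane, fell 3.18-fold in adults (adjusted p = 0.0254), with -0.88 ± 0.50 and an adjusted p of 0.201 in perinates. Spink1, the trypsin inhibitor of pancreatic juice, fell 2.45-fold (adjusted p = 0.000535) and 1.69-fold (adjusted p = 0.0222), and read 615.9 ± 94.1 in adult GFP- against 106.9 ± 10.4 in adult GFP+ cells. Of the lipase-related genes, Pnliprp2 fell 1.37-fold (adjusted p = 0.0272) and 1.69-fold (adjusted p = 0.000695). Pnliprp1, too dim to be tested, was lower in the unfiltered fit by 0.69 in adults (-0.69 ± 0.10) and 0.73 in perinates (-0.73 ± 0.10), at group means from 38.37 ± 1.93 to 64.93 ± 4.9. The chymotrypsin-like Ctrl did not pass the test (0.11 ± 0.17 in adults, adjusted p = 0.706, and 0.39 ± 0.17 in perinates, adjusted p = 0.103), and Ctrc, untested, differed by 0.15 ± 0.15 and -0.16 ± 0.15. Amy2b has no probe set with a single symbol and was not analysed here.

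**Figure D4:**
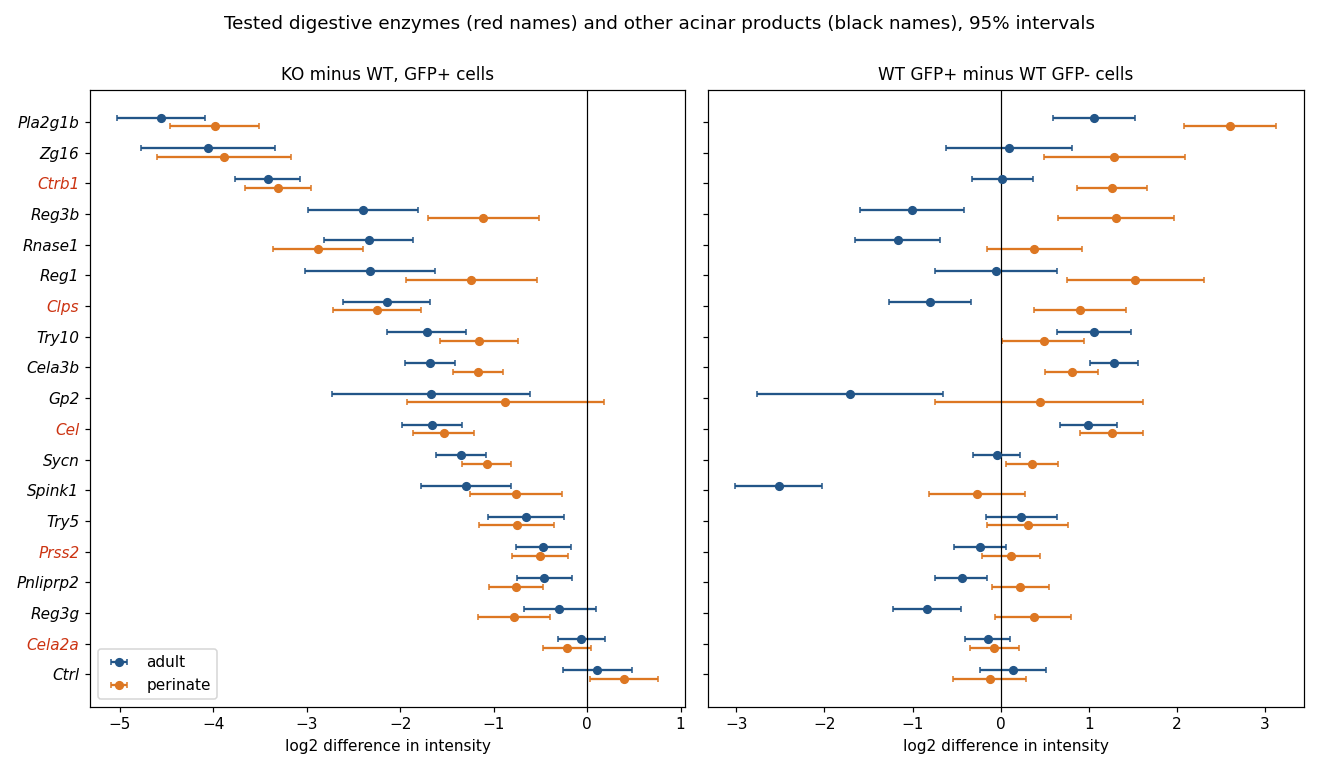
Log2 difference in intensity of the 5 tested enzymes (red names) and 14 other acinar products (black names), for KO minus WT GFP+ cells on the left and WT GFP+ minus GFP- cells on the right, in adults (blue) and perinates (orange); bars are 95% intervals. On the left all but Ctrl lie below 0, from Pla2g1b at -4.56 in adults upwards; on the right adult and perinate points part for Spink1, Reg3b and Clps, among others. Both panels use the same WT GFP+ arrays.

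The regulators of acinar identity were mostly dim. Of 16 acinar transcription factors, 14 had a probe set and 6 were tested (Gata4, Gata6, Hnf4a, Foxa2, Xbp1 and Sox9). Ptf1a and Rbpjl, the acinar subunits of PTF1, were not tested: Ptf1a means ran from 48.18 ± 5.01 to 69.2 ± 10.5 and its unfiltered KO differences were -0.19 ± 0.13 and -0.09 ± 0.13, with adjusted p of 0.347 and 0.639. Rbpjl differed by 0.18 ± 0.12 in adults and -0.30 ± 0.12 in perinates (adjusted p = 0.307 and 0.0767), and Bhlha15, which shapes the secretory apparatus, by 0.12 ± 0.12 and -0.16 ± 0.12 (0.531 and 0.329). Nr5a2 was higher in adult KO cells in the unfiltered fit (0.52 ± 0.17, adjusted p = 0.0445) and differed by 0.00 in perinates.

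Among the 6 tested factors 2 were lower in adult KO cells and 3 in perinate KO cells, where 10.8% and 13% of all genes were, and Gata6 lay above the 40th percentile on no KO array. Hnf4a, a nuclear receptor of endodermal organs, fell 1.36-fold (adjusted p = 0.0404) and 1.68-fold (adjusted p = 0.00115). Gata4, chosen for naming after its values were seen, fell 1.95-fold (adjusted p = 0.000211) and 2.27-fold (adjusted p = 2.74e-05), and Gata6, chosen likewise, fell 1.47-fold in perinates (adjusted p = 0.000266) and did not pass the test in adults (0.10 ± 0.09, adjusted p = 0.476). Xbp1, the secretory stress regulator, differed by -0.07 ± 0.10 and -0.24 ± 0.10 (adjusted p = 0.65 and 0.0827).

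Of 13 regulators of secretion and enzyme activation, 8 were tested, and 3 were lower in adult KO cells (Cckar, Cck and Spink1) and 4 in perinate KO cells (these and Sct); Cckar, Cck and Sct were chosen for naming after their values were seen. Cck, the gut hormone that makes acinar cells secrete, fell 4.31-fold in adults (adjusted p = 6.78e-09) and 2.19-fold in perinates (adjusted p = 1.87e-05), and its receptor Cckar fell 2.37-fold (adjusted p = 5.08e-07) and 1.45-fold (adjusted p = 0.00341). The shares over all genes were 10.8% and 13%. The median of the 8 was -0.2 in adults and -0.28 in perinates, beside 0.06 and 0.09 over all genes. Without the filter 4 of the 12 with a probe set were lower and 1 higher in adult KO cells. In perinate KO cells 5 were lower and 0 higher. The gene that rose was Tmprss15, which encodes enteropeptidase and was also chosen for naming after its values were seen. Too dim to be tested, it differed by 0.78 ± 0.15 in adults (adjusted p = 0.00118) and 0.35 ± 0.15 in perinates (adjusted p = 0.103). Spink1 is also on the list of acinar products, and Cck, Cckar and Spink1 lay above the 40th percentile on no KO array. Of 17 islet genes 9 were tested, among them the reporter's gene G6pc2, and 7 were lower at each age beside the same shares, with medians of -2.17 and -1.48. Ins2, among those lower at each age, lay above the 40th percentile on no KO array. Without the filter 9 of 15 islet genes were lower in adults and 11 of 15 in perinates.

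Across the 17 arrays the 10 pairs of tested enzymes correlated to different degrees. Ctrb1 and Clps correlated at r = 0.963 on the log2 scale, and at 0.641 once each group's mean was removed. Ctrb1 and Cel correlated at r = 0.823 and, within groups, at -0.171, and Cel and Clps at 0.708 and -0.168. Prss2 correlated with Ctrb1 at 0.873 and, within groups, 0.532, with Clps at 0.876 and 0.406, and with Cel at 0.622 and 0.373. Cela2a correlated least with Cel (0.209, and -0.327 within groups), and at 0.51 with Ctrb1, 0.54 with Clps and 0.594 with Prss2. These are descriptions over arrays that share 6 groups. Among genes outside the 9, the 5 whose log2 profile was most like the mean profile of the tested enzymes were Klk1b22 (r = 0.99), Klk7 (0.986), Mab21l4 (0.984), Ptgds (0.983) and Ppy (0.98). Within groups, with group means removed, the same correlations were 0.548, 0.208, 0.642, 0.408 and 0.325.

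The mean profile was not scaled per gene, so enzymes with wide ranges, such as Ctrb1 and Clps, weigh most in it. Klk1b22, a kallikrein-family protease gene, was most like that mean. It read 1607 ± 364 in adult GFP-, 1436 ± 300 in adult WT GFP+ and 71.13 ± 28 in adult KO cells, and 263.1 ± 129, 813 ± 104 and 35.57 ± 1.41 in the matching perinate groups. Ppy, a hormone of the islet, read 1126 ± 134, 1219 ± 358 and 167 ± 8.77 in adults and 466.3 ± 8.27, 956.4 ± 213 and 153.3 ± 16.9 in perinates. For both, adult WT GFP+ and GFP- arrays overlapped, as they did for Ctrb1.

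The genes that flank the enzymes on their chromosomes, taken as the nearest 2 on each side in the RefSeq annotation of GRCm38.p6, were read as a local comparison chosen after earlier results were known. Of 13 tested neighbours of the 5 tested enzymes, 1 was called in a KO comparison, where 19.9% of all tested genes were called in adults and 26.5% in perinates. That was Fhad1, beside Cela2a, which was higher in KO cells (0.64 in adults, adjusted p = 0.0258, and 0.87 in perinates, adjusted p = 0.00326). Beside Ctrb1 itself, Zfp1, Ldhd, Bcar1 and Cfdp1 were all tested and none was called, with differences from -0.34 (Bcar1, perinates) to 0.29 (Zfp1, adults). Cel had 3 tested neighbours (Ralgds, Gtf3c5 and Gfi1b), and Clps and Prss2 had 1 each (Srpk1 and Ephb6), none of them called.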

How the data were processed

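The authors deposited 1 linear intensity per probe set and array, from RMA in Affymetrix Power Tools, per the submitters' processing notes; with versions, and which arrays were normalized jointly, not given in the sources used here. The arrays were Affymetrix Mouse Gene 1.0 ST, read with amplified RNA, per the labels. All 24922 probe sets were read; 21425 have 1 symbol, 1399 several and 2098 none (unnamed here), and 0 columns of values were unused. Intensities ran from 6.358 to 20106. Where a gene has several single-symbol probe sets, that with the highest mean log2 value was used. Log2 values without a pseudocount were fitted as 6 group means over 17 arrays in limma 3.58.1 (R 4.3.3; lmFit, contrasts.fit, eBayes; 11 residual degrees of freedom, prior 5.52). Tests are two-sided moderated tests with Benjamini-Hochberg adjustment over 13842 genes, called under 0.05; the steps were tested on simulated data.

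The number of arrays, 2 or 3 a group, limits the precision (median SE 0.13). Nothing says that replicates came from separate mice, so p-values here reflect only the spread among these samples, and that spread may be technical. Array numbers shared by adult GFP- and GFP+ cells (6, 7 and 8) may pair the samples, since the deviations from the group means correlated at 0.503, 0.442 and 0.188. Shared numbers of the other comparisons gave 0.033 to 0.19, so the value of number 8 does not stand apart from them. The main fit took all arrays as unpaired, and pairing was fitted only as an alternative. Members and gene lists were chosen with earlier results of these data known. Named genes are all members, Aire, G6pc2, preset genes of each list and the 5 genes most like the members; others are marked. Alternatives covered scaling, filter, weights, prior, pseudocount, probe sets, groups in the fit, pairing and leaving out arrays.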

Additional observations from a re-analysis of the deposited data

Results flagged for a closer look

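The effect of the GFP sort differed between the ages for 2 of the 5 tested enzymes, by limma's test of the difference itself. For Ctrb1 the GFP+ minus GFP- difference was 0.02 in adults and 1.26 in perinates, a gap of 1.24 ± 0.25 (adjusted p = 0.00203). Over the alternatives this gap ran from 0.98 to 1.51, with adjusted p from 0.000855 to 0.0184. For Clps the difference was -0.81 in adults and 0.90 in perinates, a gap of 1.71 ± 0.33 (adjusted p = 0.00155), which ran from 1.26 to 2.15 over the alternatives, with adjusted p from 0.000257 to 0.0136. Both gaps rest on 2 perinate GFP- arrays, on which the cortical epithelial markers summed to 13755.3 to 14147.7 against 3661.5 to 5500 in adult GFP- cells. The dendritic cell and macrophage markers summed to 1015.8 to 1287.4 there against 5662.1 to 6781.5. Aire read 310.5 ± 57.3 in perinate against 690 ± 221 in adult GFP- cells, and G6pc2 341.5 ± 124 against 1614 ± 143. The sort effect was also greater in perinates for Aire and G6pc2 (2 of 2 called, median gap 1.52). Such a rise was called for 10.7% of all genes. The part of these differences in the gaps was not tested.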

How the results depend on the processing

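Over 88 values of single enzymes and 1341 alternatives, 1303 kept their side of the threshold, 29 lost their call and 9 gained one. A change of sign was counted only where the value was called in either fit, and there were 0. Uncalled values did change sign, such as the adult sort difference of Ctrb1 (-0.087 to 0.094 over the alternatives). The KO calls of Ctrb1 and Clps held in each of their 15 alternatives in adults and 16 in perinates. Those of Cel held in the 14 and 15 in which it was tested, which leave out the 60th percentile filter. With the filter at the 60th percentile, where fewer enzymes are tested, 2 were called in each KO comparison (4 before), 1 in the adult sort, 2 in the age comparison of GFP- cells and 2 in adult KO GFP+ against WT GFP- cells, and over all genes 2129 were called in the perinate KO comparison (3664 before) and 86 for its difference between ages (167 before). That last count was 812 with array weights and 252 with only the groups compared. Without perinate KO arrays 2 and 3 it was 45, the perinate KO comparison called 1171 genes, and the age comparison in KO cells called 1876 (3601 before) and 0 enzymes; with array weights the latter called 2 enzymes. Leaving out single arrays gave 2400 to 3684 genes in the perinate KO comparison, 52 to 216 for the difference between ages, 1 to 2 enzymes for age in WT GFP+ cells and 0 to 1 for age in KO cells. Fitting array numbers as a replicate block changed no call of an enzyme; it called 1730 genes for age in WT GFP+ cells (3067 before) and 6243 in the adult sort (6210 before). No detection measure per probe set was used here. The dim values of Cel, Prss2, Cela2a, Cela1, Cpa1 and Cpb1, and of Ctrb1 and Pla2g1b in KO cells, therefore limit how far their differences can be read.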
